A study of Mus musculus with 36 samples.

Results

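Transcript levels of 10 genes of the autophagy pathway were followed across 12 groups of mouse embryonic fibroblasts, connective tissue cells grown from mouse embryos. The members are Ulk1, Becn1, Wipi1, Atg5, Atg12, Atg16l1, Map1lc3b, Gabarapl1, Sqstm1 and Nbr1, taken by name from the table of read counts. They are 10 of 36856 gene symbols in that table, and all 10 were among the 16065 genes that passed the filter on low counts. Strand-specific RNA-seq gave 36 libraries, 3 for each combination of genotype and treatment. The cells were WT or PERK -/-, a knockout of PERK, the kinase of the endoplasmic reticulum (ER) that phosphorylates eIF2 alpha during ER stress. Each genotype received DMSO (the solvent), Tg (thapsigargin, which blocks the calcium pump of the ER), BtdCPU (an activator of the eIF2 alpha kinase HRI), Halofuginone (an inhibitor of prolyl-tRNA synthetase that activates the eIF2 alpha kinase GCN2), BtdCPU+Tg or Halofuginone+Tg. The labels give no dose, time, batch, clone or mouse strain, and do not say how the PERK -/- cells were made or whether replicates were separate cultures. P-values therefore measure the spread between these libraries, which may be technical.

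Autophagy encloses cytoplasm in a double membrane that fuses with the lysosome. The ULK1 kinase complex starts the process, a lipid kinase complex containing Beclin 1 marks the forming membrane, and WIPI proteins read that mark. A ubiquitin-like system joins ATG12 to ATG5, and with ATG16L1 the conjugate attaches ATG8 proteins such as LC3B and GABARAPL1 to the membrane. Cargo receptors such as p62 (the Sqstm1 product) and NBR1 bind both ubiquitinated cargo and ATG8 proteins and are themselves degraded. The eIF2 alpha kinases raise translation of the transcription factor ATF4, which is known to activate several autophagy genes, and fibroblasts are a standard cell type for studying this. A transcript level does not measure autophagic flux.

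Library totals ran from 32454257 to 37178107 counts, and 13251 to 14499 genes per library had at least 10 counts. The targeted gene Eif2ak3, which encodes PERK, measured 30.3, 32.4 and 30.7 CPM (the usual read count unit relative to library size, here scaled by TMM) in the 3 WT DMSO libraries and 9.37, 9.67 and 10.8 in the 3 PERK -/- DMSO libraries. These groups did not overlap (log2 fold change -1.65, SE 0.19, edgeR adjusted p = 8.69e-09), and a remaining level in PERK -/- cells was counted in every group, up to 32.1 CPM on average in Halofuginone+Tg. All 7 fibroblast markers examined (Col1a1, Col1a2, Col3a1, Pdgfra, Pdgfrb, Thy1, Vim) were present in every library, with a summed level of 16758 to 20808 CPM in WT DMSO, 10520.0 to 12660.5 in WT Tg and 11270.3 to 13396 in PERK -/- DMSO. Epithelial markers were low, from 0.169 CPM or less for Epcam to 1.08 or less for Cdh1. Their summed level was 0.0571 to 0.337 CPM in WT DMSO and 0.944 to 1.84 in WT Tg. Of the endothelial markers, Emcn had no count in any of the 36 libraries. Pecam1 and Tek stayed at 0.935 CPM or less, Cdh5 reached 1.76 and Kdr 4.41 CPM. The 4 leukocyte markers examined (Ptprc, Cd68, Csf1r, Itgam) summed to 4.30 to 4.71 CPM in WT DMSO and to 14.5 to 23.02 in PERK -/- BtdCPU+Tg, where Csf1r alone reached 19.1 CPM. Ptprc, which defines leukocytes, stayed at 0.956 CPM or less.

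The members whose levels moved most together or most often are the receptor gene Sqstm1, the kinase gene Ulk1 and the membrane gene Wipi1, so the 150 bases upstream of their start sites are shown. RefSeq (GRCm38.p6) gave 300-base windows, from 250 bases before to 50 after the start, for 7 of the 10 members, 8 windows in all because Nbr1 has 2. Becn1, Atg12 and Atg16l1 had none. The 3 stretches are in lower case throughout because none of the motifs searched occurred in them.
Sqstm1, chr11:50210821-50210970, minus strand: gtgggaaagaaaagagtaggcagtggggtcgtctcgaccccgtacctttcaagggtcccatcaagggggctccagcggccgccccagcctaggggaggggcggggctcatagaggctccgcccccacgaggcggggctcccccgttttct
Ulk1, chr5:110810082-110810231, minus strand: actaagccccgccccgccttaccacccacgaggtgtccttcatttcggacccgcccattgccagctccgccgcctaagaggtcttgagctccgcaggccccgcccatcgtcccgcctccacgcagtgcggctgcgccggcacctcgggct
Wipi1, chr11:109611390-109611539, minus strand: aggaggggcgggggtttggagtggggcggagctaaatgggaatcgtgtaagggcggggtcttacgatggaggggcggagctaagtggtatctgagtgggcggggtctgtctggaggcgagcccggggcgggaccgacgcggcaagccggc
All 3 windows were rich in G and C, at 63.3% for Sqstm1, 68% for Ulk1 and 69% for Wipi1 over 300 bases, against a median of 52.7% over all windows. The printed stretches hold 10, 16 and 14 CG dinucleotides in the same order. Both strands of the 8 windows were searched for 3 motifs. TGATGNAA, the core of the C/EBP-ATF response element bound by ATF4 and CHOP, was in 0 of 8 windows and in 3.97% of all 32851 windows. TCACGTGA, the CLEAR core bound by the TFEB family, was in 0 of 8 and in 0.974% of all. TGACNNNGC, the antioxidant response element, was in 1 of 8 and in 12.4% of all. Its match in Map1lc3b begins at position 5, counted with the start site as position 1, and is capitalised here.
Map1lc3b, chr8:121590432-121590460, plus strand: gcgagtcaccTGACTCGGCtgcggactga
The lack of a match says only that these letters are not in these windows. With a single match, no matches overlapped.

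Levels of the members differed widely. Per kilobase of exon (GENCODE M21, basic set), Sqstm1 was the most abundant in WT DMSO cells at 190.5 ± 22.5 CPM per kb (SD, n = 3). Nbr1 followed at 28.9 ± 2.23, Atg5 at 23.5 ± 4.53, Becn1 at 20.3 ± 1.09, Gabarapl1 at 15.3 ± 1.24 and Wipi1 at 14.6 ± 0.658 CPM per kb. Atg16l1 had 10.9 ± 0.750, Ulk1 9.07 ± 1.19, Atg12 2.73 ± 0.168 and Map1lc3b 1.38 ± 0.203 CPM per kb. Map1lc3b, although its product LC3B is the usual marker protein of autophagosomes, thus had the lowest counted level. It rested on only 155 to 507 counts per library. Reads of it counted elsewhere cannot be set aside, because the counter and annotation are not given. The order depends on the gene models: with the exons of all GENCODE transcripts, chosen after seeing the data, Atg16l1 had 3.60 ± 0.248 and Ulk1 7.31 ± 0.962 CPM per kb, Becn1 13.5 ± 0.725 and Wipi1 14.1 ± 0.638, Nbr1 22.0 ± 1.70 and Atg5 23.5 ± 4.53, while Sqstm1 stayed highest at 160.2 and Map1lc3b lowest at 0.952. Over the 12 group means, Sqstm1 spanned 6.75-fold, Ulk1 3.58-fold, Map1lc3b 3.12-fold, Gabarapl1 2.70-fold, Wipi1 2.68-fold and Atg12 2.51-fold. Atg16l1 spanned 2.41-fold, Nbr1 2.25-fold, Atg5 2.11-fold and Becn1 1.61-fold.

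**Figure D1:**
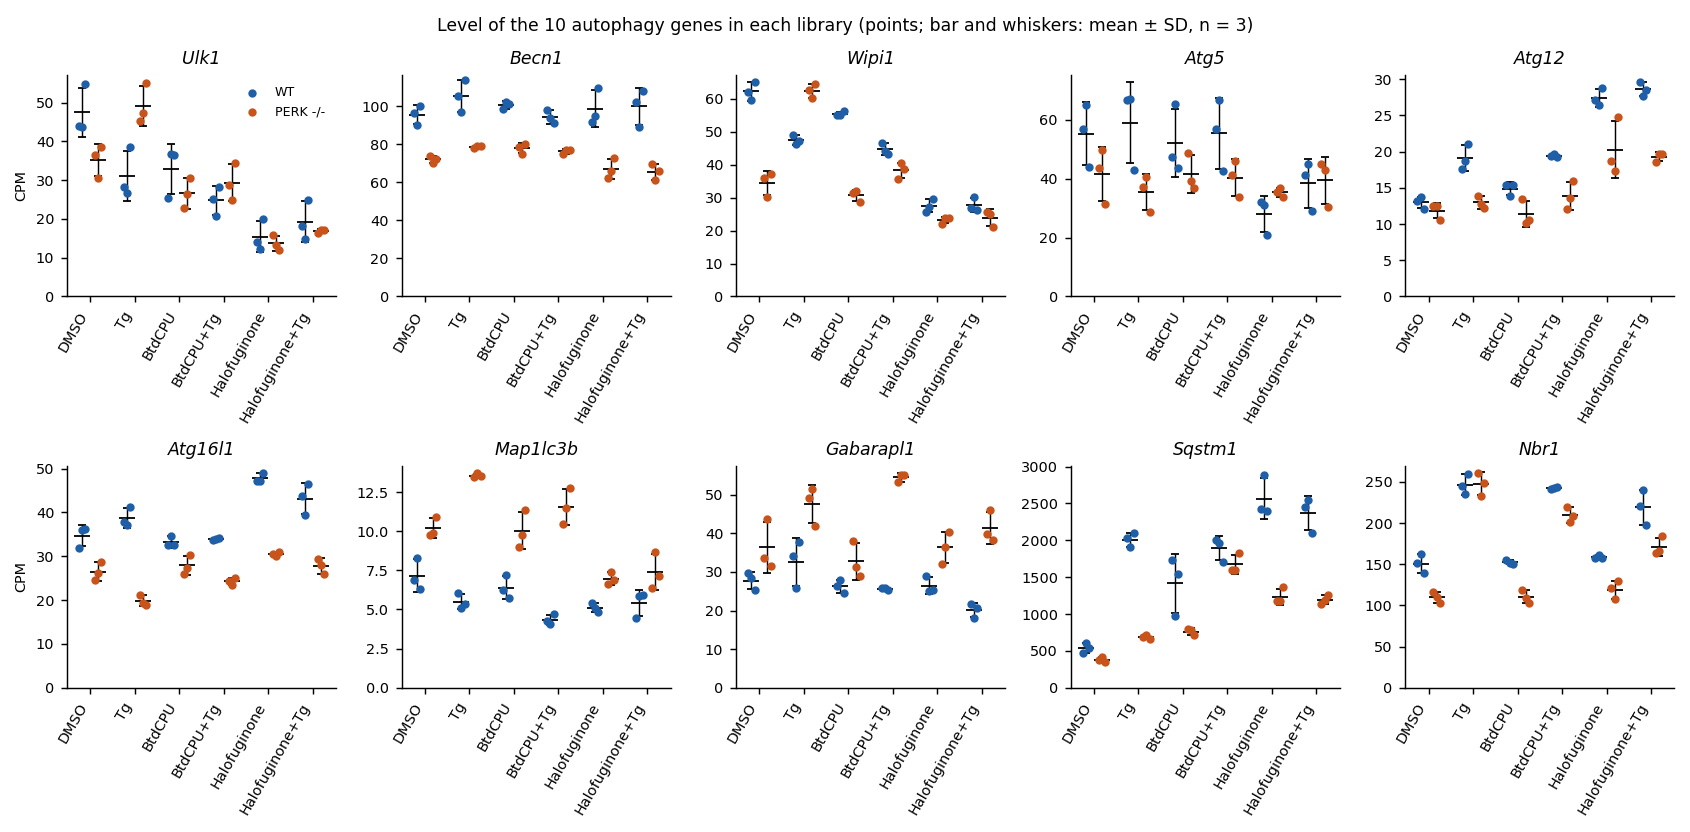
Level of each member in CPM (vertical axis, linear from 0) for the 6 treatments (horizontal axis), WT in blue and PERK -/- in orange; points are libraries, the bar and whiskers are mean ± SD of 3. Sqstm1 lies at 345 CPM or more everywhere and peaks in WT Halofuginone, Becn1 and Atg16l1 are lower in every PERK -/- library than in any WT library, and Map1lc3b and Gabarapl1 tend to the opposite order with overlap.

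Across the 10 treatment comparisons, 5 in each genotype, Sqstm1 passed the test as higher in 8 and as lower in 0. Ulk1 was lower in 7 and higher in 1, Wipi1 lower in 6 and higher in 1, and Map1lc3b lower in 4 and higher in 1. Atg12 was higher in 5 and lower in 0, and Atg16l1 higher in 3 and lower in 1. Nbr1 was higher in 2 and lower in 2, Gabarapl1 higher in 1 and lower in 1, Atg5 lower in 2 and Becn1 lower in 1. A gene was called when its edgeR quasi-likelihood p, adjusted by Benjamini-Hochberg over all 16065 genes, lay below 0.05. The 3 treatments set against DMSO share the DMSO libraries of their genotype, and both combinations share the Tg libraries, so these comparisons are not independent.

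These counts are read against the share of all genes called in the same comparison. Tg changed many genes: 3 of 10 members were higher and 3 lower in WT cells, where 24.9% of all tested genes were higher and 22.7% lower. In PERK -/- cells given Tg, 6 members were higher and 1 lower, against 15.2% and 12.7% of all genes. BtdCPU moved 1 member up and 1 down in WT cells (12.9% and 9.31% of all genes) and 1 up in PERK -/- cells (2.55% and 1.04%). Halofuginone had 3 higher and 4 lower in WT cells (34.7% and 33.4%), and 2 higher and 3 lower in PERK -/- cells (21.2% and 21%). Adding BtdCPU to Tg moved none of the 10 in WT cells by edgeR or by DESeq2, with 3 at an unadjusted p under 0.05, where 1.29% and 1.02% of all genes were called. The same addition to PERK -/- cells gave 2 higher and 3 lower (17.3% and 18.3%). Adding Halofuginone to Tg gave 1 higher and 4 lower in WT cells (22.8% and 22.5%), and 3 higher and 5 lower in PERK -/- cells (25.2% and 27.5%). The same-numbered WT Tg and WT BtdCPU+Tg libraries deviated together, and with the replicate number as a block 2079 genes in place of 372 were called between them, still with none of the members. Counts over all genes were least stable where BtdCPU was tested. For BtdCPU in WT cells, 3571 genes became 1780 without WT BtdCPU 1, 1966 without WT BtdCPU 3 and 2370 without WT DMSO 2. In PERK -/- cells 577 became 326 without PERK -/- BtdCPU 1, 353 without PERK -/- BtdCPU 3, 336 without PERK -/- DMSO 1 and 343 without PERK -/- DMSO 2. For BtdCPU+Tg in WT cells 372 became 41 without WT BtdCPU+Tg 3, 68 without WT Tg 1 and 169 without WT Tg 3, and 1 member (Gabarapl1) passed without WT Tg 2. Scaled by raw library totals alone, the higher genes made up 45.1% in place of 58.1% of the calls for BtdCPU in WT cells and 80.7% in place of 55.9% for BtdCPU+Tg in WT cells. For Tg in PERK -/- cells the 7 members called became 4 without PERK -/- DMSO 1 or PERK -/- Tg 2.

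**Figure D2:**
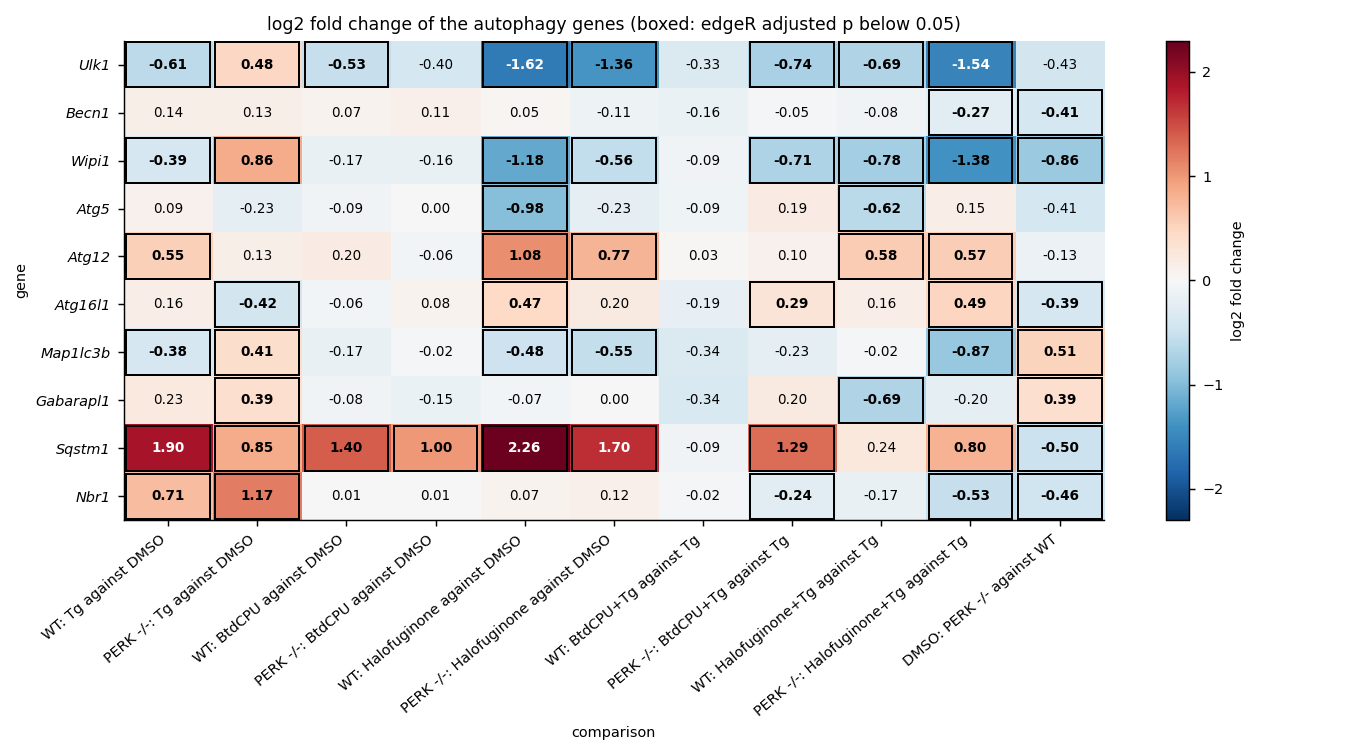
log2 fold change of each member (rows) in the 10 treatment comparisons and in the comparison of genotypes under DMSO (columns); red is higher, blue is lower, and boxes mark an edgeR adjusted p below 0.05. The Sqstm1 row is red for all 6 single-agent columns and blue (-0.50) for the genotypes under DMSO, while the Ulk1 and Wipi1 rows are blue except in PERK -/- cells given Tg.

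Ulk1, which encodes the kinase that starts autophagosome formation, was lowest in the groups given halofuginone. WT DMSO libraries held 43.97, 43.7 and 54.7 CPM and WT Halofuginone libraries 14.2, 12.2 and 19.9. The groups did not overlap, and the fall was among the largest of any member (log2 fold change -1.62, SE 0.19, edgeR adjusted p = 7.99e-09). PERK -/- cells went from 36.6, 30.5 and 38.5 CPM in DMSO to 15.8, 13.3 and 12.01 in Halofuginone, again without overlap (log2 fold change -1.36, SE 0.19, edgeR adjusted p = 8.04e-07). Tg moved Ulk1 in opposite directions in the 2 genotypes. In WT cells the level was 28.2, 26.6 and 38.5 CPM with Tg, below every DMSO library (log2 fold change -0.61, SE 0.19, edgeR adjusted p = 0.00754). With Tg it was 45.1, 47.3 and 55.05 CPM in PERK -/- cells, above every DMSO library (log2 fold change 0.48, SE 0.18, edgeR adjusted p = 0.0491). That rise missed the threshold when any 1 of its 6 libraries was left out, with values of 0.35 to 0.54, and with DESeq2 (0.46, adjusted p = 0.0568). Falls of Ulk1 were called in other treatment comparisons as well. BtdCPU in WT cells gave 25.5, 36.7 and 36.6 CPM (log2 fold change -0.53, SE 0.19, edgeR adjusted p = 0.0387), a call that was kept only when the library left out was WT BtdCPU 2 and was lost without WT DMSO 1, 2 or 3 or WT BtdCPU 1 or 3 (-0.61 to -0.37). Ulk1 in PERK -/- cells fell from its Tg level to 28.6, 24.99 and 34.5 CPM with BtdCPU+Tg (log2 fold change -0.74, SE 0.19, edgeR adjusted p = 0.00204) and to 16.5, 17.04 and 17.2 with Halofuginone+Tg (log2 fold change -1.54, SE 0.19, edgeR adjusted p = 4.05e-08). In WT cells Halofuginone+Tg gave 18.1, 14.8 and 24.99 CPM, below the 3 Tg libraries (log2 fold change -0.69, SE 0.19, edgeR adjusted p = 0.00313).

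Wipi1 encodes a protein that binds the lipid mark made by the Beclin 1 complex, and its levels followed a similar course with less spread. WT DMSO libraries held 62.2, 59.5 and 65.2 CPM, WT Tg 49.1, 46.2 and 47.2 and WT Halofuginone 25.7, 27.1 and 29.6. Both treated groups lay below DMSO without overlap, Tg by little (log2 fold change -0.39, SE 0.09, edgeR adjusted p = 0.00043) and Halofuginone by more (log2 fold change -1.18, SE 0.09, edgeR adjusted p = 5.43e-13). PERK -/- cells began lower, at 35.9, 30.2 and 37.1 CPM, and Tg took them to 62.8, 60.2 and 64.4, the level of WT DMSO cells (log2 fold change 0.86, SE 0.09, edgeR adjusted p = 4.98e-09). Halofuginone took them to 22.1, 23.9 and 23.8 CPM (log2 fold change -0.56, SE 0.09, edgeR adjusted p = 5.1e-06). Set against Tg, Wipi1 fell with BtdCPU+Tg in PERK -/- cells, to 35.8, 40.5 and 38.6 CPM (log2 fold change -0.71, SE 0.09, edgeR adjusted p = 1.71e-07), and the WT value of -0.09 did not pass the test. Halofuginone+Tg lowered it in both genotypes, to 26.8, 30.2 and 26.2 CPM in WT cells (log2 fold change -0.78, SE 0.09, edgeR adjusted p = 2.25e-08) and to 25.7, 25.01 and 21.04 in PERK -/- cells (log2 fold change -1.38, SE 0.09, edgeR adjusted p = 6.89e-14). None of the 7 Wipi1 calls among the treatment comparisons was lost when a library was left out or another setting was used.

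Becn1, the gene of Beclin 1 in the lipid kinase complex, had the fewest calls of any member under treatment. Its WT group means ran from 94.2 to 105 CPM and its PERK -/- means from 65.5 to 78.7. The single treatment call was Halofuginone+Tg in PERK -/- cells, where 78.3, 79.01 and 78.9 CPM with Tg compared with 69.6, 61.1 and 65.7 (log2 fold change -0.27, SE 0.08, edgeR adjusted p = 0.00696). It was lost without PERK -/- Halofuginone+Tg 2 (values without 1 library -0.27 to -0.19). The call was also lost without a filter on low counts (-0.23, adjusted p = 0.161). Over all GENCODE transcripts, Becn1 exons share 3104 of 7065 bases with Cntd1 on the other strand, but Cntd1 had only 134 counts over all libraries against 110402 for Becn1.

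Of the conjugation genes, Atg12, which encodes the ubiquitin-like protein joined to ATG5, rose in all 4 comparisons that tested halofuginone, and these calls held in every setting tried. WT DMSO libraries held 13.1, 13.7 and 12.1 CPM and WT Halofuginone 27.1, 26.4 and 28.8, without overlap (log2 fold change 1.08, SE 0.12, edgeR adjusted p = 3.96e-09, 2.11-fold). The levels in PERK -/- cells were 12.5, 12.5 and 10.6 and 18.7, 17.3 and 24.8 CPM (log2 fold change 0.77, SE 0.12, edgeR adjusted p = 5.59e-06). On top of Tg, Halofuginone gave 29.6, 27.7 and 28.5 CPM in WT cells (log2 fold change 0.58, SE 0.12, edgeR adjusted p = 0.000192) and 18.6, 19.7 and 19.7 in PERK -/- cells (log2 fold change 0.57, SE 0.12, edgeR adjusted p = 0.000195). The 2 log2 changes were nearly equal, although the WT level was higher. Tg alone raised Atg12 in WT cells, to 17.6, 18.6 and 21.04 CPM (log2 fold change 0.55, SE 0.12, edgeR adjusted p = 0.000385), and the value in PERK -/- cells was 0.13 (95% interval -0.12 to 0.39), which did not pass.

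Atg16l1, whose product directs the conjugate to the membrane, rose with Halofuginone in WT cells from 31.9, 35.9 and 36.2 to 47.2, 47.3 and 49.1 CPM (log2 fold change 0.47, SE 0.08, edgeR adjusted p = 1.28e-05). The same treatment of PERK -/- cells gave 30.4, 30.02 and 30.9 CPM against 24.5, 26.1 and 28.8 in DMSO, a difference that missed the threshold (log2 fold change 0.20, SE 0.08, edgeR adjusted p = 0.0534) and passed it with DESeq2 (0.20, adjusted p = 0.0295). Tg lowered Atg16l1 in PERK -/- cells, to 21.2, 19.4 and 18.9 CPM without overlap (log2 fold change -0.42, SE 0.09, edgeR adjusted p = 0.000317). Against that low Tg level, BtdCPU+Tg brought 24.4, 23.5 and 25.05 CPM (log2 fold change 0.29, SE 0.09, edgeR adjusted p = 0.00711) and Halofuginone+Tg 29.5, 27.95 and 25.96 (log2 fold change 0.49, SE 0.08, edgeR adjusted p = 1.4e-05), so the combinations lay near the DMSO level of the same genotype. Without a filter on low counts the BtdCPU+Tg difference missed the threshold (0.33, adjusted p = 0.0855).

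Atg5, which encodes the partner of ATG12, fell with Halofuginone in WT cells from 56.9, 65.1 and 43.9 to 31.95, 30.9 and 20.9 CPM (log2 fold change -0.98, SE 0.22, edgeR adjusted p = 0.000189). Atg5 and Atg12, whose products form 1 conjugate, thus moved in opposite directions under this treatment. In PERK -/- cells the value was -0.23 (95% interval -0.68 to 0.21) and did not pass. Halofuginone+Tg gave 41.2, 45.01 and 28.9 CPM against 66.7, 67.1 and 43.00 with Tg in WT cells, groups that overlapped (log2 fold change -0.62, SE 0.21, edgeR adjusted p = 0.0188). That call was lost without WT Tg 1, WT Tg 2 or WT Halofuginone+Tg 3 (-0.80 to -0.45). Atg5 had a regularity across replicate numbers: in 12 of 12 groups the library numbered 3 was the lowest of its group. Its SE was 0.21 for Tg in WT cells, against 0.08 for Becn1.

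Among the ATG8 genes, Map1lc3b, the gene of LC3B, was low throughout and higher in PERK -/- than in WT DMSO cells. WT DMSO libraries held 6.86, 8.32 and 6.28 CPM and WT Halofuginone 5.42, 5.10 and 4.84 (log2 fold change -0.48, SE 0.14, edgeR adjusted p = 0.0033). PERK -/- cells fell likewise from 9.78, 9.89 and 10.9 to 6.61, 7.39 and 6.91 CPM (log2 fold change -0.55, SE 0.14, edgeR adjusted p = 0.00159). With Tg, WT cells fell to 6.06, 5.11 and 5.36 CPM (log2 fold change -0.38, SE 0.14, edgeR adjusted p = 0.0264) and PERK -/- cells rose to 13.4, 13.7 and 13.5 (log2 fold change 0.41, SE 0.13, edgeR adjusted p = 0.0214). Neither of these calls was firm. The WT one was lost without WT DMSO 2, WT Tg 2 or WT Tg 3 (-0.46 to -0.26), and the PERK -/- one without PERK -/- DMSO 1 or 2 or PERK -/- Tg 2 or 3 (0.35 to 0.42). Without a filter on low counts both missed the threshold (-0.41, adjusted p = 0.110, and 0.38, adjusted p = 0.190). From the Tg level, Halofuginone+Tg lowered Map1lc3b in PERK -/- cells to 6.35, 8.67 and 7.15 CPM (log2 fold change -0.87, SE 0.14, edgeR adjusted p = 2.43e-06), while the WT value was -0.02 and did not pass. Map1lc3b shares 58 exon bases with Zcchc14 on the other strand, which had 89321 counts over all libraries against 10152, so reads of Zcchc14 could enter its low count. The protein-coding gene Gm20388 overlaps Map1lc3b on the same strand with 0 shared exon bases, and no count entry matched its name. Whether Map1lc3b reads were lost in counting was not tested.

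Gabarapl1, another ATG8 gene, rose with Tg in PERK -/- cells, from 33.6, 43.8 and 31.6 to 49.1, 51.4 and 41.97 CPM, groups that overlapped (log2 fold change 0.39, SE 0.13, edgeR adjusted p = 0.0237). The call was lost without PERK -/- DMSO 1 or 3 or PERK -/- Tg 1 or 2 (0.26 to 0.54). It was also lost without a filter on low counts (0.36, adjusted p = 0.0528). Halofuginone+Tg lowered it in WT cells, from 34.1, 25.9 and 37.8 CPM with Tg to 21.8, 18.2 and 20.7 (log2 fold change -0.69, SE 0.13, edgeR adjusted p = 7.3e-05), and this held in every setting tried. Halofuginone alone left it within the spread in both genotypes, at -0.07 (95% interval -0.34 to 0.20) in WT and 0.00 (-0.27 to 0.27) in PERK -/- cells. The antisense gene 1700101I11Rik shares 570 of 2013 exon bases with Gabarapl1 and had 8104 counts against 44151, so reads could be split between them where strand was not used, and the values of Gabarapl1 are uncertain to that extent.

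Sqstm1, the gene of the cargo receptor p62, rose with all 3 single treatments in both genotypes. WT DMSO libraries held 474, 601 and 539 CPM, WT BtdCPU 1729, 970.3 and 1548, WT Tg 2026, 1906 and 2095 and WT Halofuginone 2421, 2883 and 2396. All treated libraries lay above all DMSO libraries, by 2.63-fold with BtdCPU (log2 fold change 1.40, SE 0.13, edgeR adjusted p = 3.18e-09), 3.74-fold with Tg (log2 fold change 1.90, SE 0.14, edgeR adjusted p = 7.97e-13) and 4.77-fold with Halofuginone (log2 fold change 2.26, SE 0.14, edgeR adjusted p = 5.34e-15). WT BtdCPU 2, at the low end of its group, was also lower than its 2 partners in the stress genes Ddit3 and Trib3. PERK -/- cells started at 376, 419 and 345 CPM and reached 685, 715 and 663 with Tg (log2 fold change 0.85, SE 0.13, edgeR adjusted p = 8.04e-06). BtdCPU took them to 799, 777 and 711 CPM (log2 fold change 1.00, SE 0.13, edgeR adjusted p = 6.09e-06) and Halofuginone to 1173, 1173 and 1362 (log2 fold change 1.70, SE 0.14, edgeR adjusted p = 1.83e-11). The combinations separated the genotypes. In WT cells BtdCPU+Tg gave 2006, 1962 and 1705 CPM, overlapping Tg alone (-0.09, 95% interval -0.36 to 0.18), and Halofuginone+Tg 2452, 2552 and 2104, above the Tg libraries but short of the threshold (log2 fold change 0.24, SE 0.13, edgeR adjusted p = 0.144). In PERK -/- cells BtdCPU+Tg gave 1602, 1602 and 1826 CPM, more than either agent alone (log2 fold change 1.29, SE 0.13, edgeR adjusted p = 6.98e-09 against Tg). Halofuginone+Tg in PERK -/- cells gave 1142, 1193 and 1255 CPM (log2 fold change 0.80, SE 0.13, edgeR adjusted p = 6.3e-06) and overlapped Halofuginone alone. All 8 calls held in every setting tried. Sqstm1 exons share 580 of 3356 bases with Mrnip on the other strand, which had 8568 counts against 1784065.

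Nbr1, the gene of another receptor with the same domain types, rose with Tg and not with the other single agents. WT libraries went from 152, 162 and 139 CPM in DMSO to 245, 235 and 260.0 with Tg (log2 fold change 0.71, SE 0.08, edgeR adjusted p = 2.28e-08). PERK -/- libraries went from 117, 111 and 103 to 261, 233 and 249 CPM (log2 fold change 1.17, SE 0.08, edgeR adjusted p = 3.83e-12), reaching the WT level from a lower start. BtdCPU left Nbr1 at 0.01 (95% interval -0.16 to 0.18) in WT and 0.01 (-0.16 to 0.18) in PERK -/- cells. Halofuginone left it at 0.07 (-0.10 to 0.24) and 0.12 (-0.05 to 0.29). Halofuginone+Tg in PERK -/- cells lowered it from the Tg level to 163, 167 and 184 CPM (log2 fold change -0.53, SE 0.08, edgeR adjusted p = 2.2e-06). BtdCPU+Tg gave 219.9, 201 and 208 CPM there (log2 fold change -0.24, SE 0.08, edgeR adjusted p = 0.0214), a call kept only without PERK -/- Tg 2 and lost without any other 1 of the 6 libraries (-0.24 to -0.17). Without a filter on low counts it was also lost (-0.21, adjusted p = 0.262). In WT cells the Halofuginone+Tg value of -0.17 missed the threshold (edgeR adjusted p = 0.0952) and passed with the replicate number as a block (-0.17, edgeR adjusted p = 0.0443), where the numbers do pair the libraries.

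The responses of the genotypes were compared directly as interactions, that is, the log2 response of PERK -/- cells minus that of WT cells. For Tg, 4 members responded higher and 2 lower in PERK -/- cells, against 19.5% and 18.6% of all genes. Wipi1 differed by 1.25 (95% interval 1.00 to 1.51, edgeR adjusted p = 2.13e-09) and Ulk1 by 1.09 (0.55 to 1.63, adjusted p = 0.00122). Both fell with Tg in WT cells and rose in PERK -/- cells, as did Map1lc3b (0.79, 0.39 to 1.19, adjusted p = 0.00161). Nbr1 rose in both genotypes and by more in PERK -/- cells (0.46, 0.22 to 0.70, adjusted p = 0.00197). Sqstm1 rose in both and by less in PERK -/- cells (-1.05, -1.43 to -0.66, adjusted p = 3.88e-05). Atg16l1 differed by -0.58 (-0.82 to -0.33, adjusted p = 0.000254). These 6 calls held in every setting tried. Atg12, at -0.42, missed the threshold (edgeR adjusted p = 0.0537) and passed it with DESeq2 (-0.44, adjusted p = 0.0309). By edgeR it also passed with another scaling (RLE, -0.44, adjusted p = 0.0427) and with the compared groups alone (-0.43, adjusted p = 0.0472). The same held with the replicate number as a block (-0.42, edgeR adjusted p = 0.0405) and without WT Tg 1, PERK -/- DMSO 3 or PERK -/- Tg 1. Marker sums moved with this contrast, and their part in it was not tested. Leukocyte markers went from 6.999 to 9.79 CPM in PERK -/- DMSO to 11.1 to 16.5 in PERK -/- Tg and from 4.30 to 4.71 to 4.64 to 4.89 in WT cells. Fibroblast markers went from 11270.3 to 13396 to 15099 to 19251 CPM in PERK -/- cells, and in WT cells from 16758 to 20808 to 10520.0 to 12660.5.

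In the interaction for BtdCPU, no member passed by edgeR or DESeq2, where 0.0373% and 0.162% of all genes passed as higher and lower by edgeR. A single member, Sqstm1, had an unadjusted p under 0.05, at -0.39 (95% interval -0.78 to -0.01). Without WT BtdCPU 2 this became -0.60 (edgeR adjusted p = 0.0142), and 845 genes in place of 32 passed. The 32 became 14 without WT BtdCPU 1, 16 without WT BtdCPU 3, 19 without PERK -/- BtdCPU 2 and 21 without WT DMSO 1. For Halofuginone, 1 member was higher and 1 lower, with 17.5% of all genes called in each direction. Wipi1 fell by less in PERK -/- cells (0.62, 0.36 to 0.88, adjusted p = 0.000291). Sqstm1 rose by less (-0.55, -0.94 to -0.17, adjusted p = 0.0207), which was lost without WT DMSO 1, WT Halofuginone 2, PERK -/- DMSO 2 or PERK -/- Halofuginone 1 or 2 (-0.64 to -0.46) and with raw library totals as the scale (-0.45, adjusted p = 0.0504). Atg5 had the largest value of this interaction, at 0.75 (0.12 to 1.38), and just missed the threshold (edgeR adjusted p = 0.0536). It passed with DESeq2 (0.73, adjusted p = 0.0478), with raw library totals as the scale (0.86, adjusted p = 0.0374), without a filter on low counts (0.83, adjusted p = 0.000123), with the compared groups alone (0.74, adjusted p = 0.0378) and without WT DMSO 3, WT Halofuginone 1 or 2, PERK -/- DMSO 2 or PERK -/- Halofuginone 3 (up to 0.92). Atg5 passed with the replicate number as a block too (0.78, edgeR adjusted p = 2.66e-05), although the number was not taken as pairing these libraries. Atg16l1, at -0.26 (edgeR adjusted p = 0.0832), passed with DESeq2 (-0.29, adjusted p = 0.0325). The 2 members called became 1 without WT DMSO 1 or PERK -/- Halofuginone 1 or 2, and 4 without PERK -/- Halofuginone 3.

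For BtdCPU added to Tg, 3 members were higher and 1 lower in PERK -/- relative to WT cells (10.7% and 10.1% of all genes). Sqstm1 showed the widest difference of any member in any of the 5 interactions, at 1.37 (0.99 to 1.76, adjusted p = 2.86e-06). Wipi1 differed by -0.62 (-0.88 to -0.37, adjusted p = 0.000426) and Atg16l1 by 0.48 (0.24 to 0.73, adjusted p = 0.00372); without a filter on low counts the latter missed the threshold (0.53, adjusted p = 0.0544). Gabarapl1 differed by 0.54 (adjusted p = 0.0327), which was lost without WT Tg 1, WT Tg 3 or PERK -/- Tg 3 (0.42 to 0.73) and with raw library totals as the scale (0.46, adjusted p = 0.0709). That scaling also moved the share of higher genes among all calls from 51.6% to 41.4%. The leukocyte markers moved with this contrast, from a summed 11.1 to 16.5 CPM in PERK -/- Tg to 14.5 to 23.02 in PERK -/- BtdCPU+Tg, and from 4.64 to 4.89 to 3.98 to 5.85 in WT cells. Their part in these differences was not tested.

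For Halofuginone added to Tg, 4 members were higher and 4 lower in PERK -/- relative to WT cells (15.9% and 16.9% of all genes). Wipi1 (-0.61, -0.87 to -0.35, edgeR adjusted p = 0.00029) and Map1lc3b (-0.85, -1.26 to -0.45, adjusted p = 0.001) held in every setting. The other 6 calls were each lost when some 1 library was left out, and the 8 became 4 without WT Halofuginone+Tg 3 or PERK -/- Tg 3 and 5 without WT Tg 2, WT Halofuginone+Tg 2 or PERK -/- Halofuginone+Tg 2. Ulk1 (-0.85) needed WT Tg 2, WT Halofuginone+Tg 3 and PERK -/- Tg 3 (-1.03 to -0.62). Sqstm1 (0.56) needed WT Halofuginone+Tg 3 (0.48 to 0.65), and Atg16l1 (0.33) needed WT Tg 3 and WT Halofuginone+Tg 2 (0.27 to 0.42). Nbr1 (-0.36) needed WT Tg 2, WT Halofuginone+Tg 2, PERK -/- Tg 3 and PERK -/- Halofuginone+Tg 1 and 2 (-0.43 to -0.28). Gabarapl1 (0.49) was lost without WT Tg 1 or 3, WT Halofuginone+Tg 2 or 3, PERK -/- Tg 1 or 3, or PERK -/- Halofuginone+Tg 2 (0.37 to 0.68). Atg5 (0.77) was lost without WT Tg 1 or 2, WT Halofuginone+Tg 1 or 3, PERK -/- Tg 1 or 3, or PERK -/- Halofuginone+Tg 1 or 2 (0.60 to 0.98). Of these calls, 3 also ended under other settings. Without a filter on low counts, Nbr1 (-0.29, adjusted p = 0.285) and Atg16l1 (0.41, adjusted p = 0.154) missed the threshold, as they did when only the compared groups were fitted (-0.31, adjusted p = 0.0922, and 0.38, adjusted p = 0.0558). Atg5 missed it with raw library totals as the scale (0.80, adjusted p = 0.0548).

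**Figure D3:**
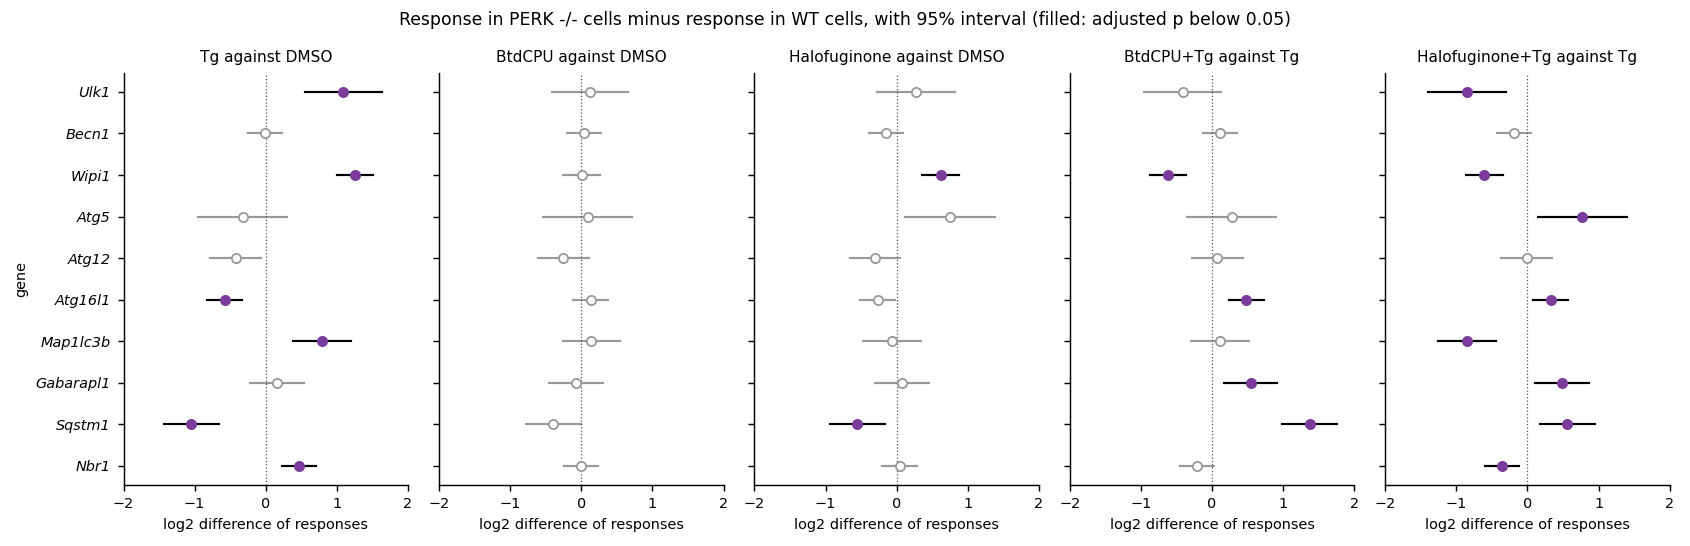
Log2 response of PERK -/- cells minus log2 response of WT cells (horizontal axis) for each member (rows) and treatment (panels), with the 95% interval as a line; filled points have an edgeR adjusted p below 0.05. Wipi1, Ulk1 and Map1lc3b lie right of 0 for Tg and left of 0 for Halofuginone+Tg, Sqstm1 lies in the reverse order, and no point is filled for BtdCPU. The Tg libraries enter the Tg panel and the combination panels with opposite signs, so mirrored positions are partly built in.

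Without treatment, PERK -/- and WT cells already differed in most members. Under DMSO, 2 of 10 were higher and 5 lower in PERK -/- cells, against 24.6% and 24.9% of all genes. Wipi1 differed most, at -0.86 (SE 0.09, edgeR adjusted p = 1.17e-09), followed by Sqstm1 at -0.50 (adjusted p = 0.00218), Nbr1 at -0.46 (adjusted p = 2.77e-05), Becn1 at -0.41 (adjusted p = 0.000119) and Atg16l1 at -0.39 (adjusted p = 0.000279). Map1lc3b was higher by 0.51 (adjusted p = 0.00255) and Gabarapl1 by 0.39 (adjusted p = 0.0138), the latter lost without WT DMSO 3 or PERK -/- DMSO 2 (0.23 to 0.47). Ulk1 was just short of the threshold at -0.43 (edgeR adjusted p = 0.0525) and passed it with DESeq2 (-0.44, adjusted p = 0.0440). It also passed with another scaling (RLE), without a filter on low counts, with the compared groups alone and with the replicate number as a block. Atg5, at -0.41, did not pass. Its difference passed without a filter on low counts (-0.45, edgeR adjusted p = 0.00293) and with the replicate number as a block (-0.42, edgeR adjusted p = 0.00106). Over all treatments, the 18 PERK -/- libraries held 61.1 to 80.3 CPM of Becn1 and the 18 WT libraries 89.3 to 114.0. For Atg16l1 the ranges were 18.9 to 30.9 and 31.9 to 49.1 CPM. These 2 members lay lower in every PERK -/- library than in any WT library, as did 6.19% of all tested genes, while 4.3% lay higher without overlap. The other 8 members overlapped between genotypes. In bulk RNA, fewer cells of a type and less RNA per cell cannot be told apart, and, with no further line labelled for either genotype, genotype and cell line cannot be told apart.

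Some members shared a course over the 12 group means, which are described here without a test because all means come from the same scaling and libraries. Ulk1 and Wipi1 followed each other (Pearson r = 0.89, n = 12 groups), as did Sqstm1 and Atg12 (r = 0.82) and the ATG8 genes Map1lc3b and Gabarapl1 (r = 0.79). Map1lc3b and Atg16l1 ran in opposite order (r = -0.88). The known ATF4-pathway readouts ran with Sqstm1: r was 0.91 with Chac1, 0.86 with Ddit3, 0.81 with Trib3, 0.70 with Atf4 and 0.66 with Asns. Ulk1 ran against Asns (r = -0.76) and Chac1 (r = -0.71), and less so against Trib3 (r = -0.59), Ddit3 (r = -0.55) and Atf4 (r = -0.33). Among 10218 genes compared on the same 12 means, the pattern of Sqstm1 was nearest to 3110043O21Rik (r = 0.971) and that of Ulk1 to Sdf2 (r = 0.980). Wipi1 was nearest to Fam171a2 (r = 0.976), Atg12 to Pttg1ip (r = 0.989), Atg16l1 to Adss (r = 0.986) and Map1lc3b to Tbc1d22b (r = 0.984). Becn1 was nearest to Ppp2r3d (r = 0.978), Atg5 to Gnb1l (r = 0.972) and Nbr1 to Kat6b (r = 0.948). Gabarapl1 was nearest to 1700101I11Rik (r = 0.968), the antisense gene that shares exon bases with it, so the 2 counts may not be independent.

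**Figure D4:**
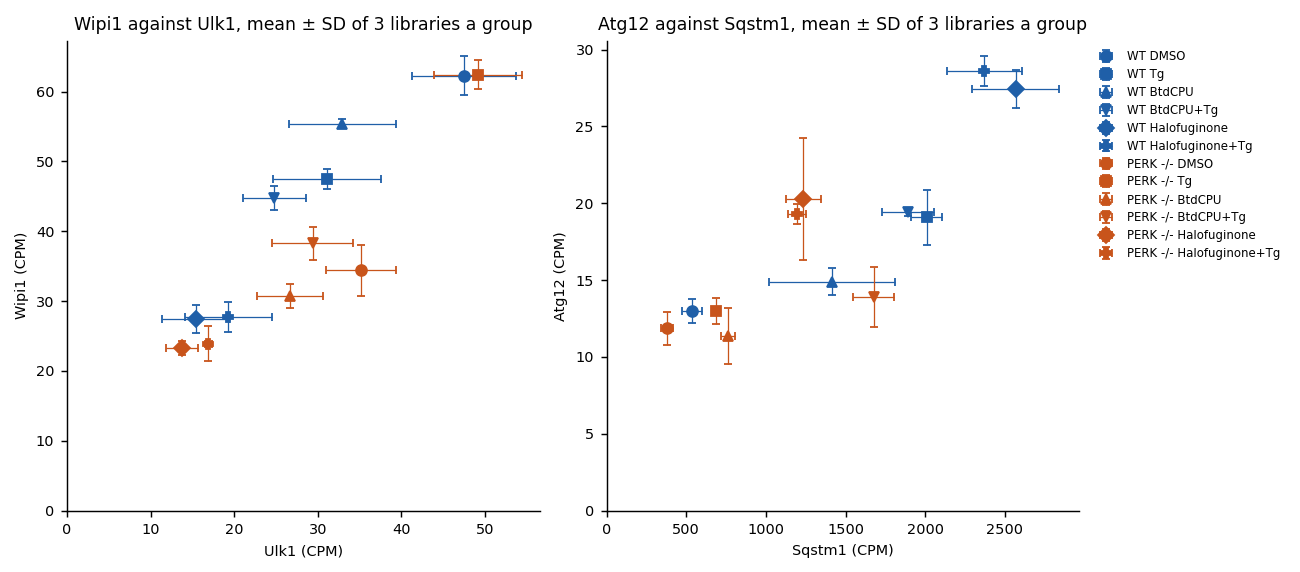
Group means ± SD (3 libraries) of Wipi1 against Ulk1 (left) and Atg12 against Sqstm1 (right), both axes in CPM from 0; colour gives the genotype and marker shape the treatment. WT DMSO and PERK -/- Tg lie together at the top right for Ulk1 and Wipi1 and the 4 groups given halofuginone at the bottom left, while Atg12 and Sqstm1 are both highest in the 2 WT groups given halofuginone.

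The rest of the pathway was described with 67 further autophagy genes in 7 lists, all of which were tested. With Tg, 22 of the 67 were higher and 18 lower in WT cells, where 24.9% and 22.7% of all genes were called (median log2 fold change 0.05, against 0.02 over all genes). In PERK -/- cells 25 were higher and 2 lower, against 15.2% and 12.7% of all genes (median 0.22, against 0.05). The difference of responses was called for 25 of the 67 as higher and 9 as lower in PERK -/- cells, against 19.5% and 18.6% of all genes. The 25 genes higher in PERK -/- cells given Tg were 10 of 16 genes of the lipid kinase complex and membrane supply, 3 of 4 of the ULK complex, 2 of 3 ATG8 genes, 6 of 14 cargo receptor genes and 4 of 16 of the TFEB family and lysosome, and the lists were not tested against each other. The leukocyte and fibroblast marker sums given above were also higher in these PERK -/- Tg libraries than in PERK -/- DMSO, and their part was not tested. The mitophagy receptor gene Bnip3 rose most there, from 7.31 to 27.3 CPM, a log2 fold change of 1.90 (SE 0.18, edgeR adjusted p = 8.06e-10), and the ER-phagy adaptor gene Calcoco1 followed, from 35.3 to 92.9 CPM, a log2 fold change of 1.40 (SE 0.12, edgeR adjusted p = 8.09e-11). In WT cells Tg raised Mitf, a TFEB-family transcription factor gene, with a log2 fold change of 1.71 (SE 0.24, edgeR adjusted p = 5.18e-07), and the receptor gene Optn with a log2 fold change of 1.36 (SE 0.26, edgeR adjusted p = 7.68e-05). It lowered Vamp8, whose SNARE protein serves fusion with the lysosome, with a log2 fold change of -1.19 (SE 0.15, edgeR adjusted p = 8.95e-08), and Gla, a lysosomal hydrolase gene, with a log2 fold change of -1.12 (SE 0.18, edgeR adjusted p = 5.43e-06).

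With Halofuginone, 26 of the 67 were higher and 24 lower in WT cells, shares near the 34.7% and 33.4% of all genes. In PERK -/- cells 17 were higher and 20 lower, against 21.2% and 21% of all genes. Medians were 0.04 and -0.01, against 0.00 and 0.00 over all genes. Optn rose in WT cells from 9.26 to 50.5 CPM, a log2 fold change of 2.45 (SE 0.27, edgeR adjusted p = 2.03e-09), and Atg16l2, a relative of Atg16l1, from 9.19 to 45.9 CPM, a log2 fold change of 2.32 (SE 0.18, edgeR adjusted p = 7.71e-13). Atg4c, an ATG8-processing protease gene, went from 8.29 to 2.17 CPM, a log2 fold change of -1.93 (SE 0.19, edgeR adjusted p = 2.17e-10). Summed endothelial markers also went from 0.248 to 0.899 CPM in WT DMSO to 3.22 to 5.33 in WT Halofuginone, with Emcn at 0 in both, and their part was not tested. BtdCPU gave 17 higher and 4 lower in WT cells (12.9% and 9.31% of all genes) and 3 higher and 1 lower in PERK -/- cells (2.55% and 1.04%). The difference between the genotypes passed for 0 of 67 by edgeR, with 3 at an unadjusted p under 0.05.

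Values of the lysosome list are given for both combinations, which share the Tg libraries and were not tested against each other. Relative to Tg in PERK -/- cells, BtdCPU+Tg raised 11 of 16 genes of the TFEB family and lysosome and lowered 1, where 17.3% and 18.3% of all genes were called (median 0.46, against -0.04 over all genes). Halofuginone+Tg raised 2 and lowered 8 there, against 25.2% and 27.5% (median -0.20, against -0.01). In WT cells Halofuginone+Tg raised 4 and lowered 2, against 22.8% and 22.5% (median 0.08, against 0). The genotype difference for it was called as higher for 1 and lower for 7 (15.9% and 16.9%). Tg alone, set against DMSO, raised 4 and lowered 8 in WT cells, against 24.9% and 22.7% (median -0.42, against 0.02). In PERK -/- cells Tg raised 4 and lowered 1 (15.2% and 12.7%). That difference was called as higher for 9 and lower for 3 (19.5% and 18.6%). BtdCPU alone, set against DMSO, raised 8 of the 16 and lowered 0 in WT cells, against 12.9% and 9.31% of all genes (median 0.25). In PERK -/- cells BtdCPU alone raised 3 and lowered 0, against 2.55% and 1.04% (median 0.21). Flcn, which encodes the folliculin regulator of TFEB, rose with BtdCPU+Tg from 69.8 to 147 CPM, a log2 fold change of 1.07 (SE 0.12, edgeR adjusted p = 5.53e-08). The ferritin-receptor gene Ncoa4 rose from 31.4 to 66.1 CPM, a log2 fold change of 1.07 (SE 0.09, edgeR adjusted p = 8.57e-11), and Bnip3 went from 27.3 to 7.18 CPM, a log2 fold change of -1.93 (SE 0.18, edgeR adjusted p = 7.08e-10). Gla fell with Halofuginone+Tg from 28.96 to 9.93 CPM, a log2 fold change of -1.54 (SE 0.18, edgeR adjusted p = 1.9e-08). In WT cells BtdCPU+Tg raised 1 and lowered 0 of the 16 by edgeR (1.29% and 1.02% of all genes), with 6 at an unadjusted p under 0.05, and the difference between genotypes was called as higher for 8 and lower for 1 (10.7% and 10.1%). The leukocyte marker sum moved with both combinations, from 11.1 to 16.5 CPM in PERK -/- Tg to 14.5 to 23.02 in BtdCPU+Tg and 5.07 to 6.04 in Halofuginone+Tg, with Ptprc at 0.956 CPM or less, and its part in the lysosome counts was not tested. Under DMSO, PERK -/- cells had less Ulk2, the relative of Ulk1, than WT cells, with a log2 difference of -1.40 (SE 0.09, edgeR adjusted p = 1.86e-14). They had more Map1lc3a, another LC3 gene, with a difference of 1.27 (SE 0.10, edgeR adjusted p = 2.99e-12).

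**Figure D5:**
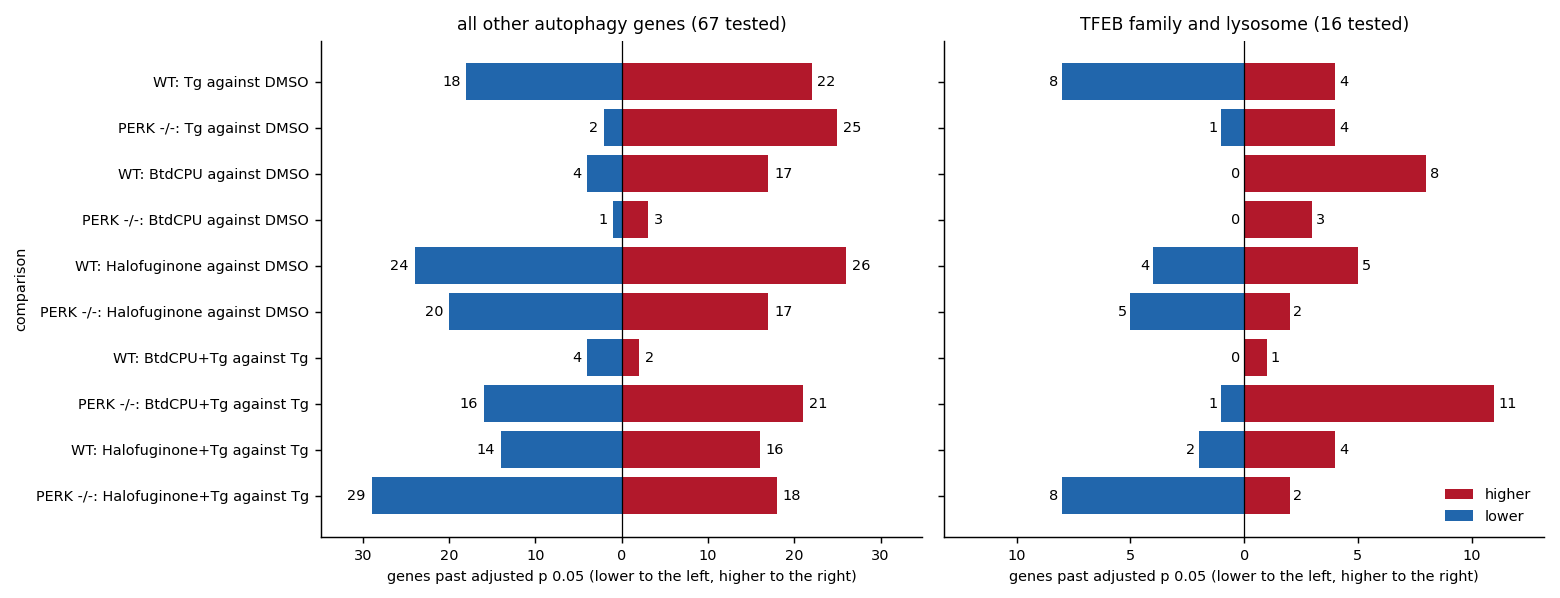
Numbers of genes past an edgeR adjusted p of 0.05 (horizontal axis, higher to the right and lower to the left of 0) for all 67 other autophagy genes (left) and the 16 of the TFEB family and lysosome (right) in the 10 treatment comparisons (rows). PERK -/- Tg has 25 higher and 2 lower on the left, and PERK -/- BtdCPU+Tg has 11 higher and 1 lower on the right.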

How the data were processed

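RNA of 36 samples was measured by strand-specific RNA-seq on a DNBSEQ instrument, per the labels, which mention both ribosomal depletion and mRNA selection. The deposited table has 36930 entries of estimated counts without any scaling. Zero is written as 0.025 (50.6% of all values), and 2.69% of the remaining values are not whole. The submitters' processing notes name GRCm39 and DESeq. The aligner, counter, annotation and use of strand are not given in the sources used here, so reads of antisense neighbours may enter a count. All values of the 10 members were whole.

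From the deposited table, 27 entries named by a date number were left out (0.206% to 0.278% of a library's counts), 39 repeated symbols were summed and counts were rounded. Genes were kept by filterByExpr (16065), scaled by TMM and tested with edgeR 4.0.16 (R 4.3.3, glmQLFit, robust) on 12 group means with 24 residual degrees of freedom and a common dispersion of 0.0199. P-values were adjusted by Benjamini-Hochberg within each of 16 comparisons, 11 of 2 groups and 5 interactions. The test was tried on simulated data. Replicates of a group differed by a chi-square of at least 9.66 per degree of freedom, so none repeated another.

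The members and all lists were chosen with earlier results of these data known. Named genes outside the members are, per comparison, up to 2 largest rises and 2 largest falls past the threshold among the 67 listed autophagy genes with a mean log2 CPM of at least 2 and no overlap between 2 compared groups. Eif2ak3 and 5 ATF4-pathway readouts are named as context. Likeness to a member is Pearson's r over 12 group means of log2 CPM, and the nearest gene is named. Same-numbered libraries deviated together (every pair's r over 0.1) for WT BtdCPU+Tg against Tg (0.159 to 0.337) and WT Halofuginone+Tg against Tg (0.162 to 0.308), and in no other comparison of 2 groups. The replicate number was therefore taken as pairing the libraries there only. The main fit has no replicate block in any comparison, so its p-values leave out any pairing, also in these 2. Some sharing by number remained elsewhere, with r of 0.041, 0.201 and 0.279 for Tg against DMSO in WT cells. Alternatives were DESeq2 1.42.0, RLE or library-size scaling, no filter, fits of the compared groups alone, a replicate block and leaving out each library. Exon lengths came from the GENCODE M21 basic set, overlaps from all its transcripts, and promoter sequences from RefSeq GRCm38.p6, which is not the build the notes name, so coordinates apply to the printed sequences only. No protein sequences were used here.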

Additional observations from a re-analysis of the deposited data

Results flagged for a closer look

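These member genes responded differently in the 2 genotypes, by the edgeR test of the difference itself (response of PERK -/- cells minus response of WT cells on the log2 scale), and are set out by treatment. Which of them rest on 1 library is given with the results above. For Tg against DMSO, the response of PERK -/- cells was the higher for Wipi1 (1.25, SE 0.12, edgeR adjusted p = 2.13e-09), Ulk1 (1.09, SE 0.26, edgeR adjusted p = 0.00122), Map1lc3b (0.79, SE 0.19, edgeR adjusted p = 0.00161) and Nbr1 (0.46, SE 0.12, edgeR adjusted p = 0.00197). It was the lower for Sqstm1 (-1.05, SE 0.19, edgeR adjusted p = 3.88e-05) and Atg16l1 (-0.58, SE 0.12, edgeR adjusted p = 0.000254). For Halofuginone against DMSO, the response of PERK -/- cells was the higher for Wipi1 (0.62, SE 0.13, edgeR adjusted p = 0.000291). It was the lower for Sqstm1 (-0.55, SE 0.19, edgeR adjusted p = 0.0207). For BtdCPU+Tg against Tg, the response of PERK -/- cells was the higher for Sqstm1 (1.37, SE 0.19, edgeR adjusted p = 2.86e-06), Gabarapl1 (0.54, SE 0.18, edgeR adjusted p = 0.0327) and Atg16l1 (0.48, SE 0.12, edgeR adjusted p = 0.00372). It was the lower for Wipi1 (-0.62, SE 0.12, edgeR adjusted p = 0.000426). For Halofuginone+Tg against Tg, the response of PERK -/- cells was the higher for Atg5 (0.77, SE 0.30, edgeR adjusted p = 0.0492), Sqstm1 (0.56, SE 0.19, edgeR adjusted p = 0.0197), Gabarapl1 (0.49, SE 0.18, edgeR adjusted p = 0.0402) and Atg16l1 (0.33, SE 0.12, edgeR adjusted p = 0.0322). It was the lower for Map1lc3b (-0.85, SE 0.20, edgeR adjusted p = 0.001), Ulk1 (-0.85, SE 0.26, edgeR adjusted p = 0.013), Wipi1 (-0.61, SE 0.12, edgeR adjusted p = 0.00029) and Nbr1 (-0.36, SE 0.12, edgeR adjusted p = 0.0157).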

How the results depend on the processing

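The 16 comparisons of 10 members gave 160 results, of which 73 passed the threshold, and none of these 73 changed sign under any alternative. Of the 87 others, 26 changed sign under at least 1 alternative, all with a value of 0.15 or less in size. Of the 73, 54 passed under every alternative, 17 were lost in at least 1 fit without 1 library and 14 in at least 1 other alternative. Of the 87, 73 did not pass under any alternative. DESeq2 lost 1 call and added 5, RLE scaling lost 1 and added 2, library-size scaling lost 3 and added 2, fits of the compared groups alone lost 4 and added 4, and the fit without a filter lost 9 and added 3. The cause of these changes was not tested. Scaling by raw library totals shifted the median over all genes by -0.11 for Halofuginone against DMSO in WT cells and by 0.10 for the interaction with Halofuginone.

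Numbers of members called moved by more than 1.5 times in the following cases, for which the cause was not tested. For the interaction with Halofuginone, 2 became 4 with DESeq2 and ranged from 1 to 4 without 1 library. For BtdCPU+Tg against Tg in PERK -/- cells, 5 became 3 without a filter. For BtdCPU against DMSO in WT cells, 2 became 1 when only the compared groups were fitted and ranged from 1 to 2 without 1 library. For Tg against DMSO in PERK -/- cells, 7 ranged from 4 to 5 without 1 library. For BtdCPU+Tg against Tg in WT cells, and for the interaction with BtdCPU, 0 ranged from 0 to 1. For the interaction with Halofuginone+Tg, 8 ranged from 4 to 8.

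With the replicate number as a block, 7 member results were added and none lost. Where the numbers pair the libraries, only Nbr1 for Halofuginone+Tg in WT cells changed its call. In the other comparisons of 2 groups some r of same-numbered libraries was 0.1 or less, so the numbers were not taken as pairing. Weaker sharing by number was still seen, with r of 0.068, 0.254 and 0.287 for BtdCPU against DMSO in WT cells. The block took the members called for BtdCPU against DMSO in PERK -/- cells from 1 to 2 (Ulk1, -0.40). All genes called went from 577 to 1577 there, from 3571 to 5534 for BtdCPU in WT cells and from 32 to 587 for the interaction with BtdCPU. All genes called for BtdCPU also moved to 835 in WT cells and 1265 in PERK -/- cells when only the compared groups were fitted, and to 877 in PERK -/- cells with DESeq2. For BtdCPU+Tg in WT cells the 372 became 866 with DESeq2, 813 without a filter and 23 with the compared groups alone, and for the interaction with BtdCPU the 32 became 161, 314 and 2. Depth limits Map1lc3b most, at 155 to 507 counts per library.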

Other observations

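Regularities by replicate number fall outside the comparisons. Atg5 was lowest in the library numbered 3 in 12 of 12 groups, and Ulk1 was highest in that library in 10 of 12 and Atg16l1 in 9 of 12. The labels give no meaning to the numbers, and these counts were made after the values were seen.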
